A study of Mus musculus with 18 samples.

Results

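The 42 genes described here encode proteins that load, start and run DNA replication, supply its nucleotides, or switch cells into S phase, and they were followed through a chemical reprogramming course of mouse cells. They were taken by symbol from a fixed list, and all 42 were found among 55401 Ensembl genes in the deposited tables. The list holds 11 genes of origin licensing, 8 of origin firing, 7 of DNA polymerases and primase, 6 of the sliding clamp and its loader, 4 of single-strand binding and Okazaki fragment maturation, 3 of nucleotide synthesis and 3 regulators of the G1/S switch. RNA sequencing covered 18 libraries in 9 groups of 2. D2, D4, D6, D8, D10 and D12 are cells on days 2 to 12 of reprogramming, riPSC are the induced pluripotent stem cells obtained from the fibroblasts, mESC is the R1 mouse embryonic stem cell line, whose source is given as a blastocyst, and D0 is the mouse embryonic fibroblasts that the course began from. D0, the 6 reprogramming days and riPSC share the strain label 129XOG2 (E13.5 embryos), and the fibroblasts were used at passages 1 to 3. From the day after plating the cells stood in a reprogramming medium whose composition the labels do not give; it was renewed daily between days 4 and 8 and every 2 days otherwise, so time and feeding schedule cannot be told apart. Both riPSC and mESC grew on feeder cells with LIF, CHIR99021 (an inhibitor of GSK3) and PD0325901 (an inhibitor of MEK). The labels do not say that the libraries of a group came from separate cultures, so a p-value here reflects a spread between libraries that could be technical. That spread was estimated once per gene from all 18 libraries, so the spread in D0 also enters comparisons without D0. Where groups differ in spread, p-values may be too small for the wide groups and too large for the narrow ones.

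Before S phase, the origin recognition complex, with subunits that include Orc1 and Orc6, joins Cdc6 and Cdt1 to load the ring-shaped Mcm2 to Mcm7 helicase onto DNA, and geminin (Gmnn) blocks Cdt1 so that origins are not loaded again in the same cycle. The kinase Cdc7 with its partner Dbf4, and cyclin-dependent kinases bound to cyclin E, then lead to the recruitment of Cdc45 and the GINS proteins to the helicase, after which primase and the polymerases copy DNA on a clamp of Pcna. Many of these genes are textbook targets of E2F transcription factors, and mouse embryonic stem cells are known for a short G1 phase and a large share of cells in S phase.

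Values are FPKM, read fragments per kilobase of transcript corrected for library size, which allows levels to be compared between genes. Fold changes are differences of group means of log2(FPKM + 1), a scale that understates the change of low genes; a gene was called, and is said to have risen or fallen, at an adjusted p under 0.05 (limma, Benjamini-Hochberg over 16439 genes) with a fold of at least 2 on that scale. All 42 members passed the filter on low values. The labelled cell types were checked against markers: the summed FPKM of 6 pluripotency genes was 4220 and 4474 in riPSC, 3536 and 3961 in mESC, and 0 and 0.248 in D0, where Pou5f1, Nanog, Esrrb and Zfp42 were listed at 0 in both libraries. The 8 fibroblast markers summed to 755 and 1201 FPKM in D0, with Col1a1 at 302.5 and 502 FPKM and Thy1 at 147 and 173 FPKM, but Dcn was at 0 and 5.08 FPKM and Lum at 1.05 and 3.25 FPKM, where Dcn had 259 and 228 FPKM in D6. D0 also held 4 muscle markers at a sum of 221.5 and 179 FPKM and 6 myeloid markers at 94.9 and 101.1 FPKM. The myeloid sum in D0 included C1qa at 40.7 and 28.5 FPKM, but Ptprc was at 0 and 0.131 FPKM and Cd68 at 1.31 and 2.56 FPKM. Replicates differed most in D0, where the median absolute log2 difference between the libraries was 0.28 over all genes tested and 0.53 over the members; from D6 on it lay between 0.09 and 0.14 over all genes and between 0.04 and 0.16 over the members. In mESC every one of the 42 members was lower in replicate 1 than in replicate 2. No share over all genes was taken for this count. The median absolute log2 difference in mESC was 0.141 over all genes and 0.156 over the members. Depth was estimated from the FPKM worth of 1 read in single-exon genes at 33 to 49.1 M reads in 17 libraries, and no such step was found in D2 replicate 2. The search covered only 30 to 60 M, and whether a step is 1 read or 1 read pair could not be told. Mitochondrial transcripts took 44.2% and 35.4% of all FPKM in D6, against 6.42% and 12.4% in D4, and reached 62.3% and 62.1% in D12. A sum of FPKM gives short genes more weight than their reads. Weighted by gene length, the share was 8.17% and 5.82% in D6, 0.951% and 1.75% in D4, and 18.6% and 18.2% in D12.

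The replication genes dipped on day 6. Between D4 and D6, 23 of the 42 fell and none rose, where 6.86% of all genes tested fell and 11.6% rose; the members' median log2 fold change was -1.08, against 0.07 over all genes. Between D6 and D8, 24 rose and none fell, where 15.1% of all genes rose and 11.3% fell, and the members' median was 1.24, against 0.08 over all genes. The calls at both steps coincided in 16 members, Cdc6, Cdt1, Gmnn, Mcm2, Mcm3, Mcm5, Mcm6, Mcm7, Mcm10, Cdc45, Gins1, Prim1, Rfc4, Rpa2, Lig1 and Ccne2, while 1.67% of all genes tested fell and rose in this way. A further 7 fell at D6 without a call at D8 (Pold1, Pold2, Pcna, Rfc5, Fen1, Tyms and Ccne1), 8 rose at D8 without a call at D6 (Orc1, Mcm4, Dbf4, Pole, Pole2, Rfc1, Rrm1 and Rrm2), and 11 were called at neither step. Both D6 libraries lay below both D4 libraries in 40 of the 42, which was also the case for 31.5% of all genes, and both D8 libraries lay above both D6 libraries in 39, as for 47% of all genes. Across the 9 groups D6 had the lowest mean of 31 members, a count for which no share over all genes was taken. In bulk samples fewer cycling cells and less of each RNA per cell cannot be told apart.

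**Figure D1:**
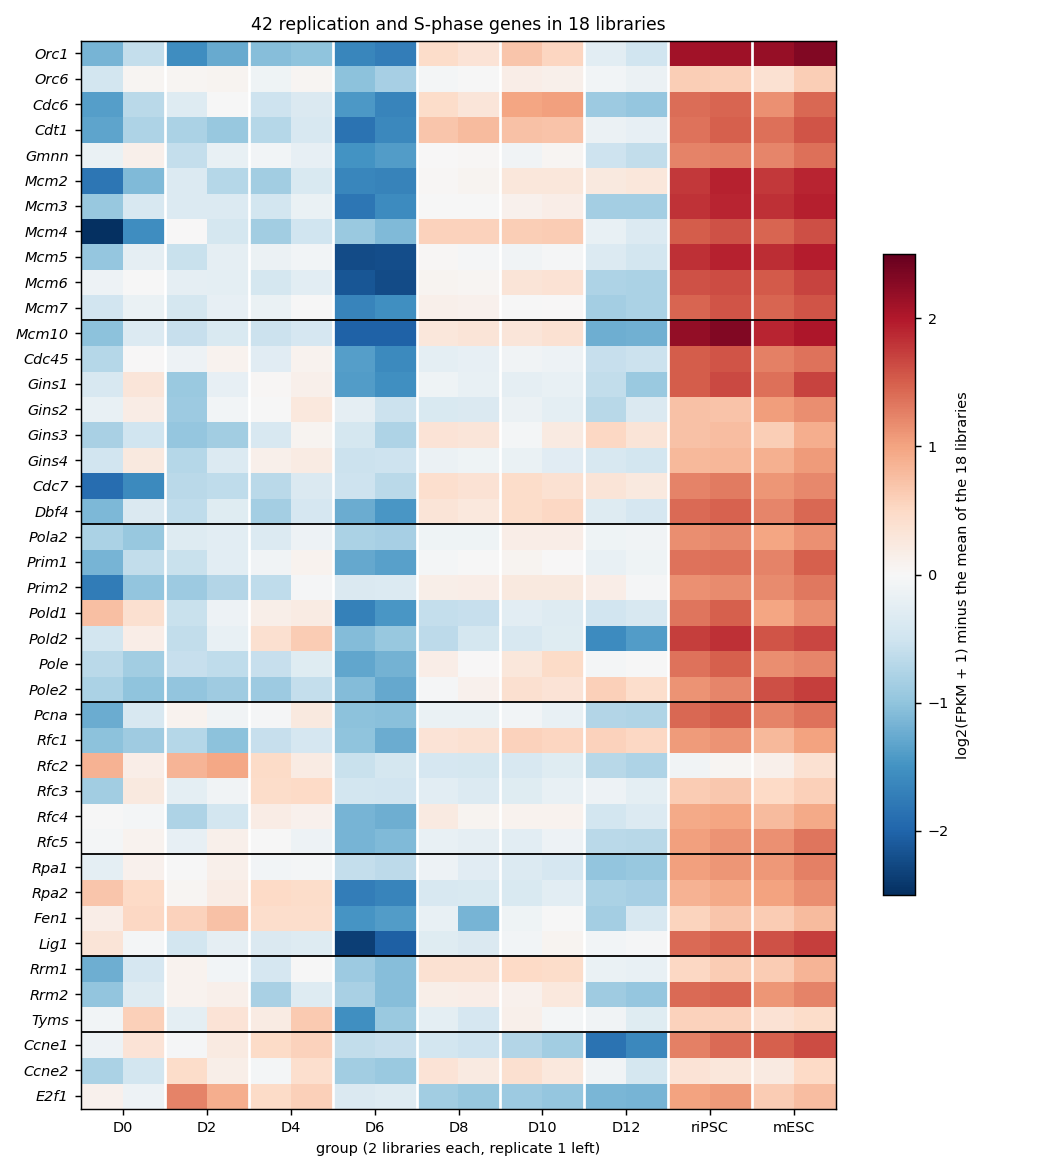
Levels of the 42 replication and S-phase genes (rows, grouped by role) in the 18 libraries (columns, replicate 1 left), as log2(FPKM + 1) minus the mean of the 18 libraries. Red is above and blue below a gene's own mean. The D6 columns are blue for nearly all genes, the riPSC and mESC columns red, and Rfc2 and E2f1 have their highest group means in D2.

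Markers of cell identity differed at the same times. The summed level of the 8 fibroblast markers was 1536 and 1958 FPKM in D4, 2462 and 2389 FPKM in D6 and 496 and 487 FPKM in D8; all 8 were detected in both libraries of these groups. At D6, 3 of the 8 rose and none fell, but Col3a1 was lower, at 175 and 171 FPKM against 255 and 352 FPKM in D4. At D8, 7 of the 8 fell. The 6 pluripotency markers summed to 0.708 and 0.586 FPKM in D4 with Nanog, Esrrb, Zfp42 and Dppa5a listed at 0, to 3.7 and 3.31 FPKM in D6 with Nanog at 0, and to 255 and 254 FPKM in D8. Dppa5a held 171 and 172 FPKM of the D8 sums. Nanog was at 0.217 and 0.309 FPKM in D8 and Sox2 at 4.03 and 4.57 FPKM. The 5 extraembryonic endoderm markers summed to 42.8 and 66.2 FPKM in D4, to 36.3 and 36.5 FPKM in D6 and to 312 and 311 FPKM in D8. The 4 endothelial markers summed to 4.66 and 6.73 FPKM in D4, 3.64 and 3.65 FPKM in D6 and 26.7 and 25.0 FPKM in D8. Of these, 3 rose at D8, among them Pecam1, which was far higher in riPSC (45.1 and 46.9 FPKM) than in D8 (2.28 and 2.25 FPKM). Kdr went the other way, with 4.01 and 5.74 FPKM in D4, 1.40 and 1.21 FPKM in D6 and 0.432 and 0.564 FPKM in D8. The part of all these markers in the changes of the replication genes was not tested. With mitochondrial genes left out and the rest rescaled, the members' median was -1.04 for D6 against D4 and 1.21 for D8 against D6.

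Of the 11 licensing genes, 8 fell between D4 and D6, and 10 rose between D6 and D8, all except Orc6. Mcm5, a subunit of the helicase ring, had 6.71 and 6.78 FPKM in D6, against 31.8 and 33.9 FPKM in D4, a log2 fold change of -2.13 ± 0.18 (SE, adjusted p = 2.27e-06). In D8 it had 36.0 and 34.5 FPKM, a change of 2.23 ± 0.18 (SE, adjusted p = 6.79e-07) against D6. The D6 libraries stood below all other libraries of the course, and both D8 libraries lay just above those of D4. Mcm6, another subunit, had 9.54 and 8.86 FPKM in D6, against 33.3 and 37.8 FPKM in D4 (-1.84 ± 0.10 (SE, adjusted p = 5.20e-08)). It rose to 48.2 and 47.5 FPKM in D8 (2.26 ± 0.10 (SE, adjusted p = 1.73e-09)), above both D4 libraries. Cdt1, which brings the helicase to the origin, had the largest rise of any member at D8. It stood at 47.0 and 50.9 FPKM in D8, against 7.26 and 8.75 FPKM in D6 (2.48 ± 0.17 (SE, adjusted p = 1.40e-07)), and the D6 value was itself below 17.2 and 21.7 FPKM in D4 (-1.18 ± 0.17 (SE, adjusted p = 1.42e-04)).

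The remaining licensing genes spanned low and high levels. Cdc6, the ATPase that recruits the helicase, had 2.93 and 3.35 FPKM in D4, 1.07 and 0.795 FPKM in D6 and 6.75 and 5.89 FPKM in D8, with log2 fold changes of -1.1 and 1.92. Orc1, the large ATPase subunit of the origin recognition complex, was already at 2.17 and 2.34 FPKM in D4, and its 1.15 and 0.999 FPKM in D6 gave a change of -0.65 ± 0.17 (SE, adjusted p = 0.0065), short of the fold threshold. In D8 it rose to 8.13 and 7.47 FPKM (2.08 ± 0.17 (SE, adjusted p = 4.77e-07)). Its partner Orc6 had the smallest change of the class at D8, with 30.9 and 34.5 FPKM in D4, 15.9 and 18.4 FPKM in D6 and 32.3 and 33.3 FPKM in D8 (-0.89 and 0.90, neither called). Gmnn, the inhibitor of Cdt1, fell by 1.31 and then rose by 1.46 on the log2 scale. Mcm2, Mcm3 and Mcm7 fell by between 1.03 and 1.5 and rose by between 1.68 and 1.70. Mcm4 was not called at D6. It had 12.25 and 10.8 FPKM in D6, against 12.8 and 17.0 FPKM in D4 (-0.34 ± 0.27 (SE, adjusted p = 0.34)), both D6 libraries below both D4 libraries, and rose to 36.6 and 36.9 FPKM in D8 (1.60).

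Because E2F factors are the known regulators of this gene class, the promoters were read for the E2F letters TTTCCCGC, TTTCGCGC, TTTGCCGC and TTTGGCGC on both strands, from 250 bases before to 50 bases after each RefSeq start (build GRCm38.p6). Of the 42 members, 33 matched the table, with 39 promoters between them. The letters stood in 12 of the 33 genes (36.4%), against 2.61% of all 27025 genes in the table, and in 12 of the 39 promoters (30.8%), against 2.27% of all 32851 promoters. CCAAT, the letters bound by NF-Y, stood in 57.6% of the 33 genes and 41.1% of all genes. The letters TTTGAA or TTCGAA, known as CHR, stood in 27.3% of the 33 genes and 21.7% of all genes. Gins4, Ccne2, Gmnn, Gins2, Rfc2, Prim2, Pole, Gins1 and Mcm4 were not in the table. The 250 bases before the start of Mcm5 and Mcm6 are shown because these genes had the largest falls of the licensing class, with each E2F match in capitals; in both, 2 matches on opposite strands overlap in a run of 12 bases. Mcm5 lies at chr8:75109259-75109508 (plus strand) and Mcm6 at chr1:128359706-128359955 (minus strand), upstream of the RefSeq start.
Mcm5: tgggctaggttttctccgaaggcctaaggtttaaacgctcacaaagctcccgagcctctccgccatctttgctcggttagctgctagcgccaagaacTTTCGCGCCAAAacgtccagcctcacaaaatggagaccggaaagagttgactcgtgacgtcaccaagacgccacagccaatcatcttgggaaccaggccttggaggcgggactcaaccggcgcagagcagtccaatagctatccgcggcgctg
Mcm6: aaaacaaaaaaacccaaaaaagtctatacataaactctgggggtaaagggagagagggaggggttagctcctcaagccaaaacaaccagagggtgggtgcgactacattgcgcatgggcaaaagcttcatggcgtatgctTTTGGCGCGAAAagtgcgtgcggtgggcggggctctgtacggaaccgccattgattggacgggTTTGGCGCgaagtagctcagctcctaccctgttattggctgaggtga

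The first match of each of 8 further members is shown with 10 bases on each side, in the direction of the gene, to let the letters be compared. The matches begin 138 bases before the start in Cdc6 (chr11:98908003-98908030), 27 before in Orc1 (chr4:108579417-108579444), 41 before in Gins3 (chr8:95633508-95633535) and 165 before in Mcm7 (chr5:138172031-138172058). After the start they begin at 32 bases in Cdt1 (chr8:122568037-122568064), 26 in Lig1 (chr7:13278842-13278869), 19 in Mcm3 (chr1:20820276-20820303) and 10 in Pole2 (chr12:69228163-69228190).
Cdc6: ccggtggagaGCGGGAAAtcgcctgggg
Orc1: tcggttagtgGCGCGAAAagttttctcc
Gins3: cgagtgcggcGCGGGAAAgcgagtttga
Mcm7: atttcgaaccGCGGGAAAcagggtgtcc
Cdt1: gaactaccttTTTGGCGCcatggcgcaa
Lig1: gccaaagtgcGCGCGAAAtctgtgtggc
Mcm3: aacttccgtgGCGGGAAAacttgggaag
Pole2: gtcggcggtgGCGCCAAAtcgcgaacat

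Pold1 and Rfc3 complete the 12. Of these 12 genes, 8 fell at D6 with a median log2 fold change of -1.28, and 9 rose at D8 with a median of 1.78. Of the 21 members whose promoters lacked the letters, 12 fell at D6 with a median of -1.07, and 10 rose at D8 with a median of 0.99. The difference between these groups was not tested.

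**Figure D2:**
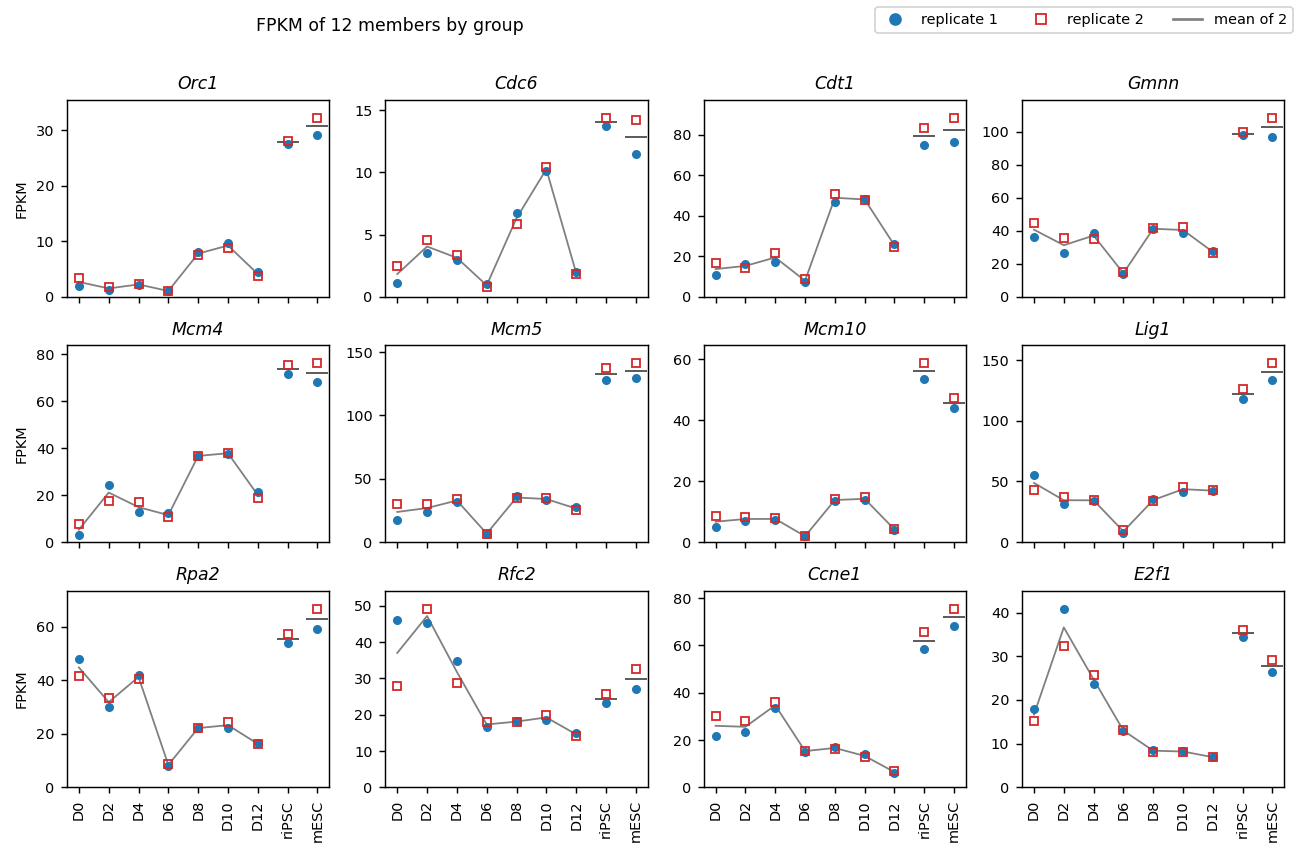
FPKM of 12 members in the 9 groups; filled circles are replicate 1, open squares replicate 2, and the line joins the means of the course from D0 to D12 (horizontal bars mark the means of riPSC and mESC). Mcm5, Mcm10, Lig1 and Rpa2 drop at D6, whereas Rfc2 and E2f1 have their highest means at D2 and stay low from D6 to D12.

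Among the origin firing genes, 3 of 8 fell at D6 and 4 rose at D8. Mcm10, which helps to activate the loaded helicase, had 1.95 and 1.95 FPKM in D6, against 7.29 and 7.99 FPKM in D4 (-1.55 ± 0.17 (SE, adjusted p = 1.53e-05)). It rose to 13.6 and 14.1 FPKM in D8 (2.33 ± 0.17 (SE, adjusted p = 2.18e-07)), above every library from D0 to D6. Cdc45, which joins the helicase at firing, fell by 1.38 and rose by 1.25 on the log2 scale. Gins1, one of the GINS subunits, had 4.81 and 4.24 FPKM in D6, against 14.6 and 15.6 FPKM in D4 (-1.54 ± 0.24 (SE, adjusted p = 2.49e-04)), and rose to 13.1 and 12.4 FPKM in D8 (1.32). The other GINS genes were called at neither step. Gins2 had 9.98 and 12.4 FPKM in D4, 8.54 and 6.65 FPKM in D6 and 7.56 and 7.67 FPKM in D8, where its libraries lay inside the range of D6. Gins3 was the lowest of the complex in every group, at 4.43 and 4.25 FPKM in D8 and 2.16 and 1.505 FPKM in D6 (0.93, not called). Gins4 stood at 16.1 and 16.4 FPKM in D6, against 26.0 and 27.7 FPKM in D4 (-0.69, not called). The difference between the subunits was not tested.

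The kinase that fires origins consists of Cdc7 and Dbf4. Cdc7 had 3.79 and 3.28 FPKM in D6, against 3.32 and 4.33 FPKM in D4 (-0.08 ± 0.13 (SE, adjusted p = 0.644)), and 8.13 and 7.87 FPKM in D8, a change of 0.99 ± 0.13 (SE) just short of the fold threshold. Its activating subunit Dbf4 had 7.72 and 6.44 FPKM in D6, against 10.3 and 14.4 FPKM in D4 (-0.71, not called), and rose to 24.7 and 23.8 FPKM in D8 (1.65 ± 0.22 (SE, adjusted p = 4.17e-05)). The ratio of Dbf4 to Cdc7 FPKM was 10.13 and 11.9 in D0, 3.10 and 3.32 in D4, and fell below both on day 6, at 2.04 and 1.96.

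The genes of DNA polymerase delta fell at D6 and were not called at D8. Pold1, its catalytic subunit, had 7.29 and 8.80 FPKM in D6, against 28.6 and 29.8 FPKM in D4 (-1.75 ± 0.16 (SE, adjusted p = 2.88e-06)), and 16.8 and 17.1 FPKM in D8 (0.99 ± 0.16 (SE), just short of the fold threshold). Pold2, an accessory subunit, had 14.0 and 15.4 FPKM in D6, against 40.8 and 48.1 FPKM in D4 (-1.53 ± 0.19 (SE, adjusted p = 4.35e-05)), and 19.1 and 22.1 FPKM in D8 (0.46, not called). Both subunits thus remained below their D4 libraries on day 8. The genes of polymerase epsilon were called at D8 and not at D6. The subunits of both polymerases were lower in D6 than in D4 and higher in D8 than in D6. The contrast thus lies in which changes passed the thresholds, and the difference between the polymerases was not tested. Pole, its catalytic subunit, had 1.81 and 2.05 FPKM in D6, against 3.64 and 4.58 FPKM in D4 (-0.80, not called), and rose to 6.77 and 5.95 FPKM in D8 (1.33 ± 0.12 (SE, adjusted p = 1.57e-06)). Pole2, its second subunit, rose by 1.22 on the log2 scale at D8, to 8.02 and 8.99 FPKM. The ratio of Pold1 to Pole FPKM was 13.2 and 12.19 in D0, 7.87 and 6.51 in D4, 4.03 and 4.29 in D6 and 2.49 and 2.87 in D8.

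Of the primase subunits, Prim1 was called at D6 and Prim2 was not. Prim1, the catalytic subunit that makes the RNA primer, had 6.72 and 6.28 FPKM in D6, against 16.4 and 18.9 FPKM in D4 (-1.31 ± 0.17 (SE, adjusted p = 4.26e-05)), and rose to 17.1 and 17.6 FPKM in D8 (1.29). Prim2, its regulatory partner, had 7.22 and 7.41 FPKM in D6, inside the range of D4 at 5.79 and 9.35 FPKM (-0.01 ± 0.22 (SE, adjusted p = 1)), and 10.7 and 10.8 FPKM in D8 (0.50, not called). The ratio of Prim1 to Prim2 FPKM was 0.93 and 0.846 in D6, below the lowest ratio in any other library, which was 1.42. Pola2, the accessory subunit of polymerase alpha that works with primase, was called at neither step (-0.57 and 0.71).

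In the clamp and clamp loader class, 3 of 6 fell at D6 and 2 rose at D8. Pcna, the sliding clamp that holds polymerases on DNA, was the most abundant member in 17 of the 18 libraries. It had 41.5 and 41.1 FPKM in D6, against 84.3 and 101 FPKM in D4 (-1.14 ± 0.20 (SE, adjusted p = 5.74e-04)), and 76.2 and 76.6 FPKM in D8 (0.87 ± 0.20 (SE, adjusted p = 0.00266), below a fold of 2). Rfc1, the large subunit of the loader that opens the clamp, had 7.11 and 5.93 FPKM in D6, against 9.95 and 11.2 FPKM in D4 (-0.62, not called), and rose to 19.8 and 20.3 FPKM in D8 (1.49 ± 0.13 (SE, adjusted p = 8.11e-07)). Rfc4, a small subunit, had 8.11 and 7.78 FPKM in D6, against 22.2 and 20.9 FPKM in D4 (-1.33 ± 0.12 (SE, adjusted p = 2.04e-06)), and rose to 22.7 and 20.4 FPKM in D8 (1.33). Rfc5 fell by 1.07 at D6 on the log2 scale and changed by 0.93 at D8, which was not called. Rfc2 and Rfc3 were called at neither step. Rfc2, a further small subunit, had 16.5 and 18.1 FPKM in D6, against 34.8 and 28.7 FPKM in D4 (-0.83 ± 0.19 (SE, adjusted p = 0.00302)), and stayed at 18.2 and 18.04 FPKM in D8. It was the member least like the rest over the 9 groups, with its highest mean in D2, at 45.1 and 49.2 FPKM. Rfc3 had 23.1 and 23.5 FPKM in D4, 11.7 and 11.5 FPKM in D6 and 13.6 and 12.8 FPKM in D8 (-0.94 and 0.17).

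The class of single-strand binding and Okazaki fragment maturation had the largest median fall of any class at D6, -1.86 over 4 genes, of which 3 fell. Rpa2, a subunit of the protein that coats single-stranded DNA, had the largest fall of all 42 members. It had 8.12 and 8.63 FPKM in D6, against 41.9 and 40.6 FPKM in D4 (-2.17 ± 0.10 (SE, adjusted p = 2.71e-08)), and rose to 22.0 and 22.3 FPKM in D8 (1.30 ± 0.10 (SE, adjusted p = 4.90e-07)), still below both D4 libraries. Its partner Rpa1 was called at neither step (-0.56 and 0.41), with 15.2 and 14.4 FPKM in D6 and 22.1 and 22.7 FPKM in D4. Lig1, the ligase that seals fragments, had 7.83 and 9.96 FPKM in D6, against 34.1 and 34.9 FPKM in D4 (-1.85 ± 0.14 (SE, adjusted p = 8.30e-07)), and rose to 35.3 and 34.1 FPKM in D8 (1.86 ± 0.14 (SE, adjusted p = 3.03e-07)), level with D4. Fen1, the nuclease that trims fragment ends, had 8.30 and 8.83 FPKM in D6, against 34.1 and 33.7 FPKM in D4 (-1.87 ± 0.25 (SE, adjusted p = 7.02e-05)). The D8 libraries disagreed for Fen1, with 21.5 and 10.5 FPKM, and the step was not called (0.75).

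Nucleotide synthesis and the G1/S regulators were mixed. Rrm1 and Rrm2 encode the large and small subunits of ribonucleotide reductase, which makes deoxyribonucleotides. Rrm2 had 30.2 and 25.1 FPKM in D6, against 30.2 and 42.8 FPKM in D4 (-0.37 ± 0.20 (SE, adjusted p = 0.142)), and rose to 59.3 and 60.1 FPKM in D8 (1.09 ± 0.20 (SE, adjusted p = 4.75e-04)). Rrm1 had 17.1 and 15.3 FPKM in D6, against 24.5 and 32.8 FPKM in D4 (-0.78, not called), and rose to 43.3 and 43.1 FPKM in D8 (1.37). The higher D6 library of Rrm2 nearly equalled the lower D4 library, whereas those of Rrm1 lay well below both. Tyms, thymidylate synthase, had 5.82 and 9.45 FPKM in D6, against 21.8 and 30.03 FPKM in D4 (-1.66 ± 0.26 (SE, adjusted p = 2.54e-04)), and 15.8 and 13.9 FPKM in D8 (0.91, not called).

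Of the G1/S regulators, the cyclin E genes were called at D6 and E2f1 at neither step. Ccne1, a cyclin that activates the kinase Cdk2 at the start of S phase, had 15.1 and 15.5 FPKM in D6, against 33.3 and 36.0 FPKM in D4 (-1.13 ± 0.15 (SE, adjusted p = 7.48e-05)), and stayed at 16.9 and 16.4 FPKM in D8 (0.11, not called). Its paralog Ccne2 fell to 1.32 and 1.22 FPKM in D6, against 3.07 and 4.66 FPKM in D4 (-1.08 ± 0.18 (SE, adjusted p = 4.48e-04)), and rose to 4.34 and 3.97 FPKM in D8 (1.18 ± 0.18 (SE, adjusted p = 1.49e-04)). The ratio of Ccne1 to Ccne2 FPKM was 3.9 and 4.13 in D8, against 11.5 and 12.7 in D6. E2f1, an activating E2F factor, had 12.8 and 13.1 FPKM in D6, against 23.6 and 25.8 FPKM in D4 (-0.88 ± 0.12 (SE, adjusted p = 8.84e-05), below a fold of 2), and was the only member with a negative change between D6 and D8. It had 8.62 and 8.16 FPKM in D8, against 12.8 and 13.1 FPKM in D6 (-0.57 ± 0.12 (SE, adjusted p = 0.00139), below a fold of 2).

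**Figure D3:**
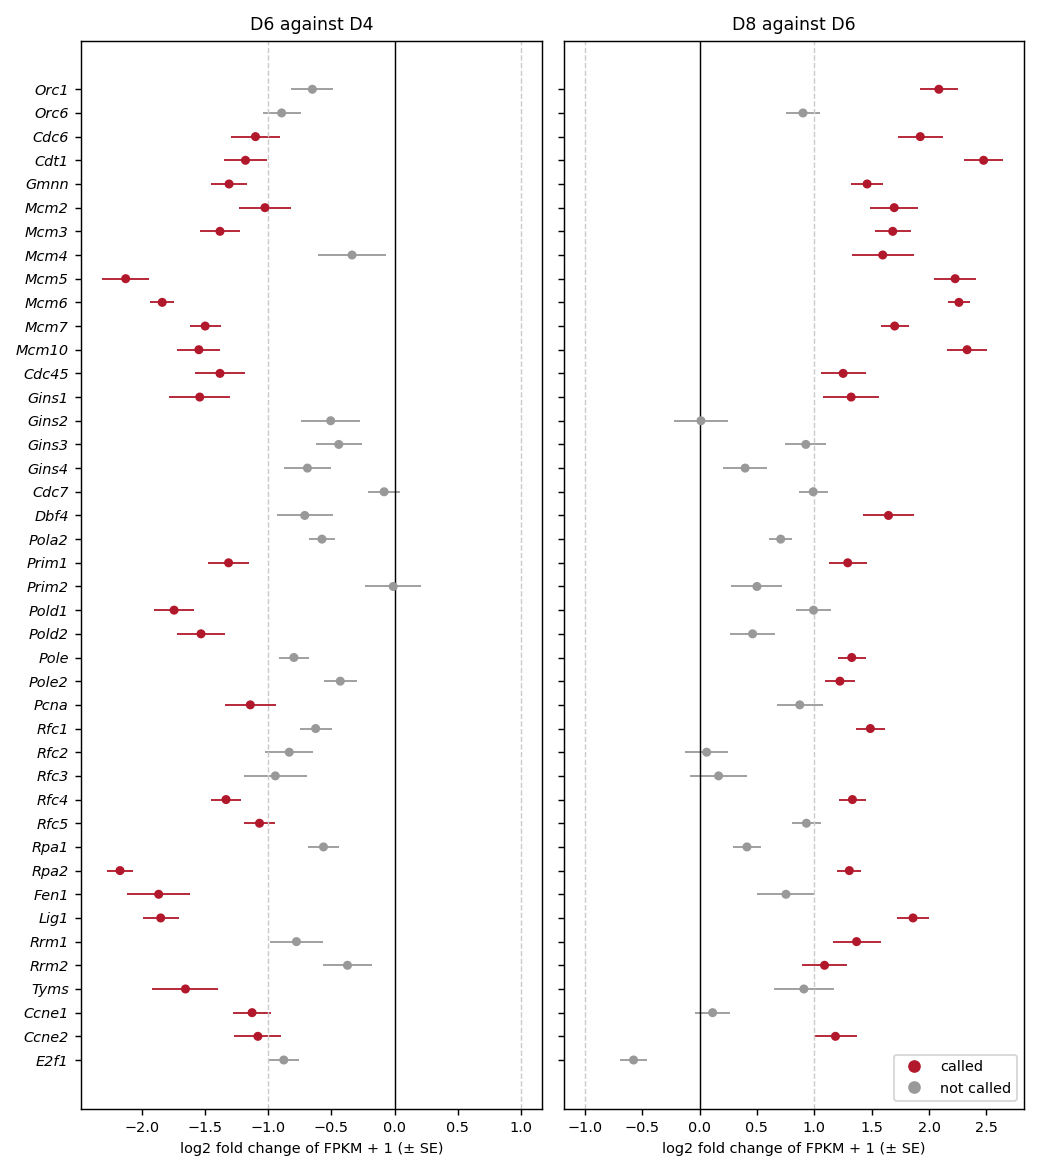
Log2 fold change of FPKM + 1 (± SE) of each member in D6 against D4 (left) and D8 against D6 (right), from limma over 18 libraries; red points were called and dashed lines mark a fold of 2. The left panel lies left of 0 for all 42 genes, and the right panel lies right of 0 for all except E2f1.

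Members near the fold threshold carry little weight as yes or no. At D6 Mcm2 (-1.03) was called and Rfc3 (-0.94) was not, and at D8 Rrm2 (1.09) was called while Pold1 and Cdc7 (both 0.99) were not. Without a fold threshold 36 of the 42 were lower at D6 at an adjusted p under 0.05. With a pseudocount of 5 in place of 1, 14 fell at D6.

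Before day 6 few members were called. Between D0 and D2, 3 of the 42 rose and none fell, where 19.5% of all genes rose and 4.63% fell. Mcm4 had 24.5 and 17.7 FPKM in D2, against 3.05 and 7.62 FPKM in D0 (1.89 ± 0.27 (SE, adjusted p = 1.25e-04)). Cdc7 had 3.31 and 3.39 FPKM in D2, against 0.824 and 1.26 FPKM in D0 (1.1 ± 0.13 (SE, adjusted p = 2.54e-05)). E2f1 had 40.9 and 32.3 FPKM in D2, against 18.1 and 15.2 FPKM in D0 (1.09 ± 0.12 (SE, adjusted p = 1.81e-05)). This was its highest mean of the 9 groups, although the libraries of D2 and riPSC overlapped. In these 3 genes both D2 libraries exceeded both D0 libraries, which adds no separate support to genes picked by their calls. Over the 42 members both D2 libraries lay above both D0 libraries in 15 and below them in 8. No share over all genes was taken for this. The count of 3 called members rested on single libraries, since it changed when D0 replicate 2 or D2 replicate 2 was left out. Between D2 and D4 limma called none of the 42 in either direction, where 5.66% of all genes rose and 4.48% fell. Of the 42, 11 were at an adjusted p under 0.05 but below a fold of 2, and 17 at an unadjusted p under 0.05. No share over all genes was taken at these cuts. The absence of calls depended on single libraries. Summed muscle and myeloid markers were lower in D2 than in D0 over the same interval. The 4 muscle markers had 19.0 and 28.2 FPKM against 221.5 and 179 FPKM, and the 6 myeloid markers 14.2 and 15.1 FPKM against 94.9 and 101.1 FPKM. Of the myeloid markers, 4 fell. Ptprc was at 0 in D2 but already at 0 and 0.131 FPKM in D0. Cd68 was not called, with 4.03 and 2.43 FPKM in D2 and 1.31 and 2.56 FPKM in D0. The part of the muscle and myeloid markers in the differences of the members was not tested.

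Set against the fibroblasts, D6 had 16 members lower and 3 higher, where 8.79% of all genes were lower and 32.8% higher. The lowest were Lig1 (-2.33), Rpa2 (-2.29), Pold1 (-2.15) and Mcm6 (-2.13). Higher in D6 than in D0 were Mcm4 (1.08), Cdc7 (1.16) and Prim2 (1.01). Without D0 replicate 1 the count of higher members was 1, and it was 0 with median-of-ratios scaling, quantile normalization, the length trend removed or a pseudocount of 5. The count of lower members was 25 under quantile normalization, 28 with the length trend removed and 9 with a pseudocount of 5. The members' median was -0.65, against 0.50 over all genes, and after median-of-ratios scaling -1.21, against 0.20 over all genes.

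After day 8 few members were called. Between D8 and D10 limma called none of the 42, with 7 at an unadjusted p under 0.05, where 0.426% of all genes rose and 2.43% fell; without D8 replicate 1, 1 member rose. Both D10 libraries lay above both D8 libraries in 23 of the 42, as for 29.8% of all genes, and below them in 5, as for 34.5% of all genes. Between D10 and D12, 5 fell and none rose, where 4.68% of all genes fell and 6.01% rose, and the members' median was -0.49, against -0.06 over all genes. The count that fell was 10 under quantile normalization, 8 without mitochondrial genes and 8 with a pseudocount of 0.1. Both D12 libraries lay below both D10 libraries in 36 of the 42, as for 43.4% of all genes. Cdc6 changed most. It had 2.01 and 1.87 FPKM in D12, against 10.09 and 10.4 FPKM in D10 (-1.94 ± 0.20 (SE, adjusted p = 9.96e-06)), after its highest level of the course. Mcm10 had 4.12 and 4.21 FPKM in D12, against 13.8 and 14.7 FPKM in D10 (-1.56 ± 0.17 (SE, adjusted p = 1.96e-05)). Pold2 had 9.66 and 10.9 FPKM in D12, against 22.9 and 24.5 FPKM in D10 (-1.13 ± 0.19 (SE, adjusted p = 6.63e-04)), the lowest of its 9 group means. Rrm2 had 28.7 and 27.1 FPKM in D12, against 58.2 and 64.9 FPKM in D10 (-1.11), and Mcm6 had 26.4 and 26.1 FPKM in D12, against 57.1 and 58.6 FPKM in D10 (-1.11). In all 5 the libraries of the groups did not overlap, which adds no separate support to genes picked by their calls. Of the 37 members not called, Mcm2 had 40.5 and 42.1 FPKM in D12, against 41.6 and 41.7 FPKM in D10, and Lig1 had 41.8 and 43.2 FPKM in D12, against 41.6 and 45.8 FPKM in D10. The pluripotency markers summed to 1374 and 1412 FPKM in D12, against 462 and 461 FPKM in D10, and 4 of the 6 rose. Most of the D12 sums came from Dppa5a (775.5 and 784 FPKM) and Pou5f1 (528 and 557.5 FPKM). In D12 Nanog was at 1.76 and 1.76 FPKM and Sox2 at 3.80 and 3.86 FPKM. In riPSC these genes had 273 and 275 FPKM and 234 and 257 FPKM. Fibroblast markers summed to 791 and 803 FPKM in D12, against 341 and 359 FPKM in D10. Of the 8, 4 rose and Thy1 fell, with 6.77 and 7.02 FPKM in D12 against 19.8 and 22.1 FPKM in D10. The part of these markers in the differences was not tested.

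Most members were higher in riPSC than in the fibroblasts. Between riPSC and D0, 31 of the 42 were higher and none lower, where 40.1% of all genes were higher and 13% lower. The members' median log2 fold change was 1.76, against 0.62 over all genes, and after median-of-ratios scaling these were 1.02 and 0.19, and with the length trend removed 0.99 and -0.06. Mcm4 had 71.7 and 75.4 FPKM in riPSC, against 3.05 and 7.62 FPKM in D0 (3.66 ± 0.27 (SE, adjusted p = 8.38e-08)). Mcm2 had 119 and 132 FPKM in riPSC, against 9.07 and 15.3 FPKM in D0 (3.30 ± 0.21 (SE, adjusted p = 1.89e-08)). Orc1 had 27.6 and 28.1 FPKM in riPSC, against 1.98 and 3.41 FPKM in D0 (2.99 ± 0.17 (SE, adjusted p = 6.44e-09)). For these licensing genes the groups were far apart. By contrast the members not called included Rpa2 (0.31), Fen1 (0.28) and Tyms (0.33). Rfc2 was the only member with a negative value, at 23.2 and 25.6 FPKM in riPSC and 46.1 and 27.9 FPKM in D0 (-0.54 ± 0.19 (SE, adjusted p = 0.0197)).

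Most members were still below their riPSC level on day 12. As a share of a gene's own riPSC mean, the members' median was 27.8% in D0, 28.8% in D2, 36.9% in D4, 16.4% in D6, 40.4% in D8, 43.6% in D10 and 30.7% in D12. Against riPSC, 41 of the 42 were lower in D6, all except Rfc2 (-0.47), where 23.3% of all genes were lower. In D12, 32 of the 42 were lower and none higher than in riPSC, where 19.8% of all genes were lower and 16.7% higher. The widest gaps at D12 were Mcm10, with 4.12 and 4.21 FPKM against 53.7 and 58.7 FPKM in riPSC (-3.47 ± 0.17 (SE, adjusted p = 2.55e-09)), and Pold2, with 9.66 and 10.9 FPKM against 104 and 111 FPKM in riPSC (-3.27 ± 0.19 (SE, adjusted p = 1.42e-08)). Ccne1 had 5.85 and 7.06 FPKM in D12, against 58.5 and 65.5 FPKM in riPSC (-3.08 ± 0.15 (SE, adjusted p = 2.61e-09)). Mcm3 (-2.70) and Orc1 (-2.49) followed. The 10 members not called were Orc6, Gins3, Cdc7, Pole2, Rfc1, Rfc2, Rfc3, Rrm1, Tyms and Ccne2, of which Gins3 came nearest to its riPSC level, with 5.11 and 4.36 FPKM in D12 and 6.06 and 6.34 FPKM in riPSC (-0.33 ± 0.18 (SE)).

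Between the stem cell groups limma called none of the 42, with 3 at an unadjusted p under 0.05, where 1.84% of all genes were higher and 1.2% lower in riPSC than in mESC. The 95% intervals of all 42 log2 differences lay within -0.89 to 0.75, and the members' median was 0. The lowest adjusted p belonged to Pole2, with 19.2 and 20.5 FPKM in riPSC and 27.1 and 29.4 FPKM in mESC (-0.49 ± 0.13 (SE, adjusted p = 0.0291)), whose libraries did not overlap but differed by less than a fold of 2. For the helicase the intervals were narrower, for example -0.21 to 0.22 for Mcm6 and -0.28 to 0.26 for Mcm7. Intervals of E2f1 (0.07 to 0.59) and Gins2 (-0.89 to 0.13) reached further.

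Ratios between partner genes differed between groups. The 6 helicase subunits are assembled in equal numbers, and the ratio of the highest to the lowest of Mcm2 to Mcm7 was 13.7 and 6.48 in D0, with Mcm4 lowest, 1.71 and 2.73 in D2, 3.89 and 3.24 in D4, 2.57 and 2.74 in D6, 1.74 in both D8 libraries, 1.71 and 1.69 in D10, 1.91 and 2.22 in D12, 2.14 and 2.23 in riPSC and 2.27 and 2.21 in mESC. The D0 libraries differed from each other in this ratio more than any other pair, but both lay above all other libraries. The ratio of Gmnn to its target Cdt1 was 0.87 and 0.817 in D8, against 1.91 and 1.69 in D6; it was 1.30 and 1.20 in riPSC and 3.33 and 2.71 in D0. D8 and D10 were thus the only groups in which Cdt1 exceeded Gmnn in both libraries. The ratio of Orc1 to Orc6 was 0.252 and 0.224 in D8, 0.0721 and 0.0543 in D6, and 0.535 and 0.555 in riPSC.

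**Figure D4:**
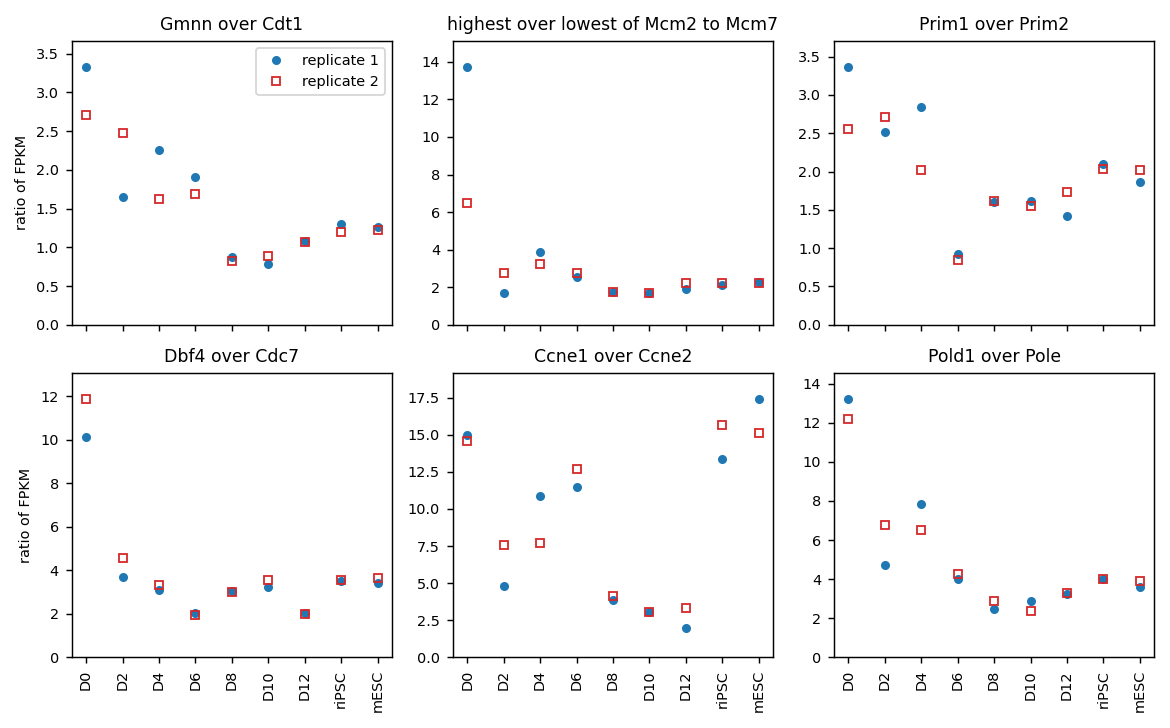
Ratios of FPKM between partner genes in each library of the 9 groups (circles replicate 1, squares replicate 2; all axes start at 0). Prim1 over Prim2 is lowest in D6, Gmnn over Cdt1 falls below 1 in D8 and D10, and the spread of Mcm2 to Mcm7 is widest in D0.

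Other cell cycle genes were counted beside the same background, 6.86% of all genes falling and 11.6% rising at D6, and 15.1% rising and 11.3% falling at D8. Of 31 further replication genes, 9 fell and 1 rose at D6, and 18 rose and 1 fell at D8. Top2a, the topoisomerase that untangles copied DNA, had 16.5 and 16.6 FPKM in D6, against 44.5 and 54.3 FPKM in D4 (-1.52 ± 0.17 (SE, adjusted p = 1.58e-05)), and rose by 2.02 on the log2 scale at D8. Among 8 genes of nucleotide supply, 3 fell at D6, led by Tk1 (thymidine kinase, -1.81) and Dut (dUTPase, -1.73), and 2 rose (25%) and 1 fell (12.5%) at D8, close to the background at that step. Of 8 genes of chromatin assembly at the fork, 3 fell and later 3 rose; the histone chaperone gene Nasp had 18.6 and 20.2 FPKM in D6, against 71.5 and 73.9 FPKM in D4 (-1.85 ± 0.10 (SE, adjusted p = 8.34e-08)). Of 20 genes of G2 and mitosis, 17 fell at D6 with a median of -1.48, all 20 rose at D8 with a median of 1.88, and 15 fell at D12 with a median of -1.19. Between D10 and D12, 4.68% of all genes fell and 6.01% rose, with a median of -0.06. Birc5, which encodes survivin of the chromosomal passenger complex, had 19.0 and 19.8 FPKM in D6, against 123 and 111 FPKM in D4 (-2.52 ± 0.15 (SE, adjusted p = 1.29e-07)). Of 15 genes of replication stress and checkpoint, 3 fell at D6 and 10 rose at D8.

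Inhibitors and regulators of the cycle had calls in both directions, in small lists. Of 7 cyclin-dependent kinase inhibitors, 2 rose and 1 fell at D6, where 11.6% of all genes rose and 6.86% fell. Cdkn1a, which encodes p21, had 387 and 387 FPKM in D6, against 94.5 and 119 FPKM in D4 (1.86 ± 0.24 (SE, adjusted p = 6.24e-05)), and fell to 136 and 132 FPKM in D8. Cdkn2b, which encodes p15, had 78.4 and 86.9 FPKM in D6, against 22.5 and 23.4 FPKM in D4 (1.80 ± 0.16 (SE, adjusted p = 2.35e-06)), and fell to 14.5 and 15.4 FPKM in D8. Cdkn1c, which encodes p57, moved the other way at D6, with 59.0 and 56.9 FPKM in D6, against 610.0 and 622 FPKM in D4 (-3.39 ± 0.13 (SE, adjusted p = 5.68e-09)). At D8, 5 of the 7 inhibitors fell and 1 rose, where 11.3% of all genes fell and 15.1% rose. At D12, 3 rose and none fell, where 6.01% of all genes rose and 4.68% fell. Of 12 genes of the E2F and RB family, 2 rose (16.7%) and 1 fell (8.33%) at D6, near the shares over all genes. E2f8, a repressor E2F, had 12.06 and 11.2 FPKM in D6, against 1.26 and 2.28 FPKM in D4 (2.21 ± 0.20 (SE, adjusted p = 3.48e-06)). Rb1, the retinoblastoma protein that restrains E2F, had 7.21 and 7.14 FPKM in D6, against 1.94 and 2.94 FPKM in D4 (1.26 ± 0.29 (SE, adjusted p = 0.00319)), and E2f2, an activating factor, fell to 1.17 and 1.01 FPKM, against 3.76 and 3.23 FPKM in D4. Of 10 cyclins and kinases of G1 and S, 3 fell and 1 rose at D6; Ccna2 (cyclin A2) fell by 1.67 and Ccnd1 (cyclin D1) rose by 1.09 on the log2 scale.

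**Figure D5:**
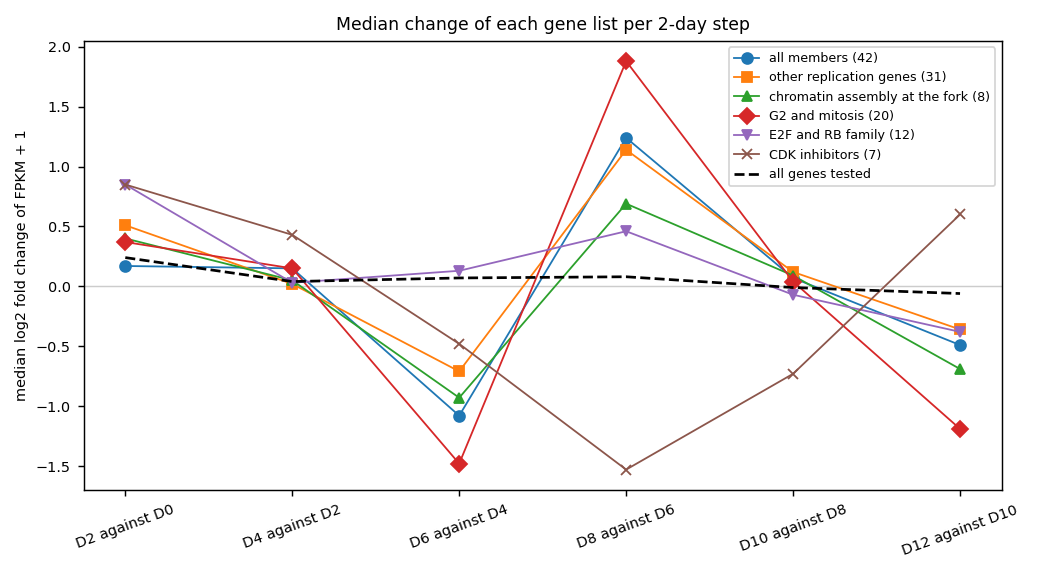
Median log2 fold change of FPKM + 1 over each gene list (number of genes in the legend) for each 2-day step of the course; the dashed line is the median of all genes tested. The members, other replication genes and G2 and mitosis genes drop at D6 against D4 and climb at D8 against D6, while cyclin-dependent kinase (CDK) inhibitors drop most at D8 against D6.

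The members resembled one another over the 9 group means. Each member's z-scored profile was correlated with the mean profile of the other 41; the median r was 0.907, and 22 of the 42 exceeded 0.9, against 2.21% of genes outside the list set against the members' mean. Mcm3 (0.995), Mcm5 (0.99), Mcm7 (0.99), Cdc45 (0.986) and Mcm10 (0.98) were closest to the common profile, and Rfc2 (0.198), E2f1 (0.482), Fen1 (0.696) and Gins3 (0.726) were farthest. Outside the list, the 10 genes most like the members' mean over the 9 groups were Uhrf1 (r = 0.993), Tpx2 (0.989), G3bp1 (0.985), Polr3e, Trim59, Srsf7, Cdca2, Fbxo5, Cenpv and Haus3 (0.982 or more). Uhrf1, which brings the maintenance DNA methyltransferase to newly copied DNA, had 13.3 and 19.1 FPKM in D0, 20.5 and 26.4 FPKM in D4, 5.89 and 6.30 FPKM in D6, 27.4 and 25.7 FPKM in D8 and 197 and 216 FPKM in riPSC. Tpx2, a spindle protein, had 18.1 and 23.3 FPKM in D4, 7.78 and 7.54 FPKM in D6 and 23.9 and 23.9 FPKM in D8. The 9 points share libraries and depth, and riPSC and mESC are among them, so these values are descriptions.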

How the data were processed

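RNA was sequenced with 150 bp reads in 18 libraries of 9 groups, 2 per group, and groups were read from the sample titles. Reads were trimmed with fastp 0.20.1, aligned to mm10 with HISAT2 2.2.1 and quantified with StringTie 2.0, per the submitters' processing notes; the annotation release is not given in the sources used here. The deposited values are FPKM, made by the authors, and were used without rescaling. Counts and depth were not among the files used. Symbols and lengths came from GENCODE M21 (GRCm38), in which 55141 of 55401 identifiers had a symbol, and promoters from RefSeq (GRCm38.p6).

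FPKM were transformed to log2(FPKM + 1), a pseudocount of 1, and tests used the 16439 genes that reached an FPKM of 1 in 2 or more libraries. A linear model with a mean for each group was fitted to the 18 libraries together in limma 3.58.1 (R 4.3.3), leaving 9 residual degrees of freedom; moderation was by eBayes, trend off, and two-sided p-values were adjusted by Benjamini-Hochberg within each of 11 comparisons; calls needed an adjusted p under 0.05 and a fold of 2. Tested on simulated data for D6 against D4 over 16439 genes, the procedure recovered 54%, 86%, 94% and 92% of 50 genes each at log2 falls of 1, 1.5, 2 and 3, with 0 false calls. The simulated noise was normal, with the same spread in all groups for a given gene. Other genes were set unchanged between D4 and D6, and falls were placed only in genes above a low level. Real spread differed between groups, so these shares do not measure the error of the calls in these data.

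The members and lists were chosen with earlier results of these data known. Full values are given for up to 3 members of each role with the largest change at D6 or D8, for members called at D12 and for members called at neither step around D6, and from each other list for up to 4 genes with the largest change at D6, not all of which are printed. Alternatives were scaling by median of ratios or quantiles, removal of mitochondrial genes or of the length trend, pseudocounts of 0.1 and 5, a filter of 5 or none, eBayes with its trend on, separate fits for each pair of groups, a replicate block, no fold threshold and leaving out each library. Group variance weights, a fit without D0, D2 and D4 and a block with crossed D2 numbers were added after seeing the data. Figures were drawn with matplotlib 3.10.9.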

Additional observations from a re-analysis of the deposited data

How the results depend on the processing

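No called member changed sign under any alternative run. Counts of members called moved by over 1.5 times as follows. The shares over all genes printed in the Results belong to the main fit, and none is given for these alternatives. With a pseudocount of 0.1, 5 rose in D2 against D0 and 1 in D4 against D2, and 8 fell in D12 against D10. With a pseudocount of 5, 1 rose in D2 against D0, 14 fell in D6 against D4, and in D6 against D0 none were higher (0) and 9 lower. Median-of-ratios scaling gave 1 higher and 1 lower in D2 against D0, 0 higher in D6 against D0 and 1 lower in riPSC against D0. Quantile normalization gave 1 and 1 in D2 against D0, 10 lower in D12 against D10, and 0 higher and 25 lower in D6 against D0. Removal of the length trend gave 1 and 1 in D2 against D0, 0 higher and 28 lower in D6 against D0, and 1 lower in riPSC against D0. Without mitochondrial genes 8 fell in D12 against D10. Without the fold threshold 11 rose and 6 fell in D2 against D0, 8 and 3 in D4 against D2, 36 fell in D6 against D4, 1 (E2f1) in D8 against D6, 21 in D12 against D10, 27 in D6 against D0, 1 in riPSC against D0 and 1 in riPSC against mESC. The cause was not tested, except that a larger pseudocount shrinks folds and a dropped fold threshold admits smaller ones. With each library left out in turn, 21 to 23 fell in D6 against D4, 24 to 26 rose in D8 against D6, 5 to 7 fell in D12 against D10, 30 to 34 were higher in riPSC than in D0, 40 to 41 lower in D6 and 31 to 33 lower in D12 than in riPSC, 14 to 17 lower and 1 to 3 higher in D6 than in D0, 2 to 8 rose and 0 to 1 fell in D2 against D0, 0 to 3 rose in D4 against D2 and 0 to 1 in D10 against D8. A lone library left in a group is assumed to vary like the other groups.

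Replicate numbers showed no clear pairing of the samples, although weak correlations cannot exclude it. Of 36 correlations between the replicate differences of 2 groups, 5 exceeded 0.1, and they ran from -0.227 (D2 and D4) to 0.266. With the replicate number as a block, the counts of members called were the same as without it in all 11 comparisons (23 lower in D6 against D4, 24 higher in D8 against D6, 5 lower in D12 against D10, 31 higher in riPSC against D0). With the D2 numbers crossed, they were also the same (23, 24, 5 and 31); that pairing was chosen after seeing the data.

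FPKM hold no counts, so depth limits were judged only from the read step. The simulated recovery at a log2 fall of 1 was 54%. A true fall of that size lies on the fold threshold itself, so this share cannot measure the effect of having 2 libraries a group. Members that missed a call near that size are not shown to be unchanged.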
